A study of Mus musculus with 2 samples.

Results

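The 44 collagen chain genes of the mouse were followed through 2 scRNA-Seq libraries of injured hind limb muscle. Members were all features whose symbol is "Col", a number, "a" and a number and nothing more, which gave 44 of 32287 listed features. Each had at least 1 UMI (unique molecular identifier, the tag that marks 1 captured mRNA molecule) in each library. Of these, 38 reached 100 UMIs over both libraries. The 6 that did not were Col2a1, Col6a4, Col9a1, Col9a2, Col10a1 and Col17a1.

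Both libraries came from male mice aged 10 to 16 weeks, 7 days after crush of the peroneal nerve on both sides, the nerve that supplies the tibialis anterior. One library followed intramuscular injections of goat anti-mouse IgG and the other injections of a neutralizing antibody to the secreted protein SPP1 (SPP1-nAb), each at 2 μg in 10 μL at injury and every 2 days after it. The labels give the strain as C57BL/6J, and the methods name S100GFP-tg mice, in which the S100B promoter drives GFP, for the antibody experiment; mice were pooled, in a number the sources used here do not give. The sample titles name S100GFP-positive cells while the sorting protocol collected live cells with and without GFP, the labels list the tibialis anterior and a muscle written GTN where the antibody was injected into the tibialis anterior alone, and the muscle was digested with collagenase type II, dispase and hyaluronidase before sorting. With 1 library per treatment no difference between treatments could be tested, a difference between the libraries cannot be told apart from a difference between the 2 preparations, and all intervals below are 95% intervals that cover counting error only.

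Collagens are proteins built from 3 chains wound into a triple helix, and each gene encodes 1 chain. Most are secreted and a few are transmembrane. Fibrillar collagens form the fibers of tendon and connective tissue, the chains of type IV form the network of basement membranes, type VI forms beaded microfibrils around cells, FACIT collagens sit on fibers, and multiplexins sit in or beside basement membranes. In muscle, mesenchymal (fibro-adipogenic) cells are known as a main source of collagen in the interstitium, and muscle fibers, vessels and Schwann cells each have a basement membrane.

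Promoter stretches are shown for chains with their highest level in Schwann-gated cells or with a neighbor that shares their start region. Col7a1, on GRCm39 chromosome 9, encodes the anchoring fibril chain, and Col28a1, on chromosome 6, encodes a chain with von Willebrand A domains. Among the gated cell classes, both were at their maximum there in each library, though mesenchymal-gated cells held more Col28a1 UMIs in all. Col4a5 and Col4a6 lie head to head on the X chromosome with 1281 bases between the annotated genes, and both were lower in the mesenchymal-gated cells of the SPP1-nAb library. Each line gives the 250 bases before the canonical start in GENCODE M39, 5′ to 3′ on the gene's own strand, with the motifs found in capitals.
Col7a1, chr9:108782397-108782646, plus strand: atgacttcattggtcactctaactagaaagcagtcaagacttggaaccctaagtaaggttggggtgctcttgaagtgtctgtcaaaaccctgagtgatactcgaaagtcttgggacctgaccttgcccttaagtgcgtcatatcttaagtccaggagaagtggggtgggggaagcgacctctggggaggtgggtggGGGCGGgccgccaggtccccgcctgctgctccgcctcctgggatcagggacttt
Col28a1, chr6:8192618-8192867, minus strand: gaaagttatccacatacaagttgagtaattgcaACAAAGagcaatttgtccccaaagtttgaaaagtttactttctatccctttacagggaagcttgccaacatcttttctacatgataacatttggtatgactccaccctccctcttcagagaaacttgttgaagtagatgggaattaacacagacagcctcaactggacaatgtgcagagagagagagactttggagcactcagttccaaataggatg
Col4a5, chrX:140258104-140258353, plus strand: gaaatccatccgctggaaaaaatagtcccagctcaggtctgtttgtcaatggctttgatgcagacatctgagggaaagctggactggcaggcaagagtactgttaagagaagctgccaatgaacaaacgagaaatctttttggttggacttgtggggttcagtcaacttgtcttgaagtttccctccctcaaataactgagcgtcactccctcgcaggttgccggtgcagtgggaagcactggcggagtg
Col4a6, chrX:140257073-140257322, minus strand: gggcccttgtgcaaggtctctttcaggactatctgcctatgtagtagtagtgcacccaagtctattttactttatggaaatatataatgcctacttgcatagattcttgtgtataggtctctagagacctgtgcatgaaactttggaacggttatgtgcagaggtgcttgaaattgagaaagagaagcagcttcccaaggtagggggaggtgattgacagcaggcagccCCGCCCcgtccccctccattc
The capitals mark GGGCGG (a GC box) in Col7a1, ACAAAG (a SOX core) in Col28a1 and CCGCCC, the GC box on the other strand, in Col4a6, and Col4a5 held none of the 3 motifs searched. Both strands were searched for the GC box GGGCGG, the SOX core ACAAAG and the TATA box TATAAA, and no motif found in the printed stretches overlapped another. GGGCGG stood in 21 of the 44 collagen stretches (47.7%) and in 36.3% of 21770 stretches of the same length before protein-coding genes of the annotation. ACAAAG stood in 7 of 44 (15.9%) and in 15.9% of all, and TATAAA in 7 of 44 (15.9%) and in 11.9% of all. A match is a stretch of letters, not a known binding site. In the other 2 head-to-head pairs the annotated transcripts overlap, by 356 bases for Col4a1 and Col4a2 on chromosome 8 and by 159 bases for Col4a3 and Col4a4 on chromosome 1. The start regions of these 4 genes lie in each other's transcripts and are not printed.

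The IgG library held 23779 barcodes and the SPP1-nAb library 25069, of which 163 barcodes occurred in both. After filters on genes and mitochondrial UMIs and removal of 10% likely doublets, 21047 cells with a median of 3682 UMIs and 22282 cells with a median of 4602 UMIs remained. Cells were assigned to 11 described classes by lists of marker genes that hold no collagen, so collagen levels had no part in the gates. The doublet scores, which decided the cells removed, did not leave collagens out. A cell was "gated" when it held at least 3 markers of a class. Its share of that list also had to be at least 1.5 times its share of any other list with at least 3 markers detected. Cells that met several lists numbered 716 and 740, and those that met none 1152 and 1022. A list for nerve-sheath fibroblasts found 19 and 11 cells, too few to describe.

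Levels below are UMIs per 1000000 UMIs of the same cells (CPM), and ratios are log2 of SPP1-nAb over IgG. The UMI level of a chain depends on how well its 3′ end is captured, so levels of single chains were compared between cells. Sums, shares and orders of chains by UMIs below depend on capture too and do not measure amounts of transcript. Over all kept cells, collagen made up 0.472% of UMIs in the IgG library and 0.282% in the SPP1-nAb library. Mesenchymal-gated cells were 10.9% of the IgG cells and 4.21% of the SPP1-nAb cells, and phagocyte-gated cells 59.8% and 70.1%. The part of this mix in the whole-library figure was not tested.

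The summed level of the 44 chains differed by orders of magnitude between classes and by far less between libraries. Mesenchymal-gated cells held 24718 CPM in the IgG library (2300 cells) and 32035 CPM in the SPP1-nAb library (938 cells). They carried 77.1% and 75.4% of each library's collagen UMIs. Tenocyte-gated cells, the fibroblasts of tendon, followed at 18966 and 16364 CPM from 618 and 340 cells.
The other classes with resident cells lay lower: Schwann-gated cells at 4279 and 4091 CPM, mural cells (pericytes and smooth muscle) at 3814 and 3290, satellite cells and myoblasts at 2456 and 2695, and endothelial cells at 2296 and 2909. The highest level among hematopoietic classes was that of neutrophils, at 125 and 170 CPM. Lymphocyte-gated cells, which are not a known source of collagen, held 61.2 and 75.9 CPM, and phagocyte-gated cells held 87.3 and 78.8. Cells gated as differentiating myoblasts held 139 and 327 CPM from 111 and 120 cells. That name rests on the gate list, which holds Acta1, Mylpf and Ttn beside Myog. In the clusters described below, these cells were the most frequent class of cluster 27. Its leading genes included Tnnt3, Tnnc2 and Acta1 but not Myog.

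**Figure D1:**
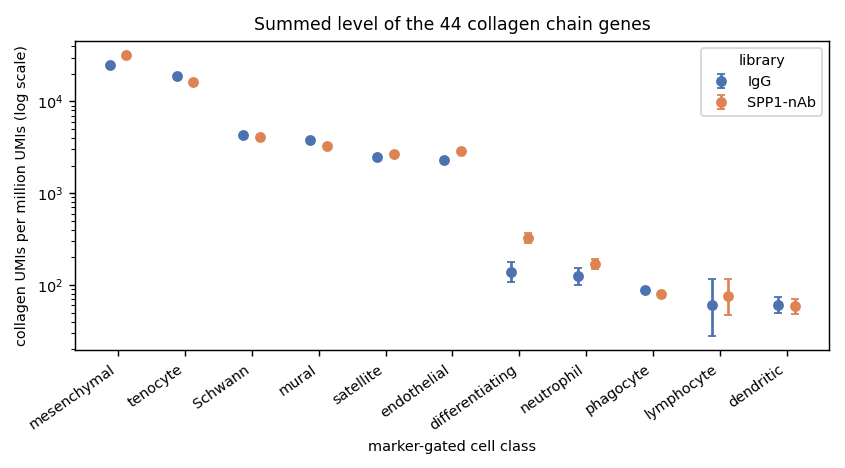
Summed UMIs of the 44 collagen chain genes as CPM (log axis) in 11 marker-gated classes, with 1 point per library and bars for the exact Poisson 95% interval of counting error. Mesenchymal- and tenocyte-gated cells lie highest in both libraries, at 16364 CPM or more, and the hematopoietic classes lie at 170 CPM or less.

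Free RNA in droplets gives every cell some collagen UMIs. Lymphocyte- and neutrophil-gated cells together were taken as its measure, and they held Col1a2 at 29.5 and 32.1 CPM, Col3a1 at 22.2 and 31.1, and Col1a1 at 9.85 and 23.1. The neutrophils among them were shallow, with medians of 1238 and 1381 UMIs, and the lymphocytes had medians of 2936 and 3965. Against this measure all chains together stood at 37.8-fold and 26.1-fold in Schwann-gated cells and at 0.771-fold and 0.503-fold in phagocytes. Set against lymphocytes alone, phagocytes stood at 1.43-fold and 1.04-fold. In CPM the summed collagen of phagocytes was thus close to that of cells that should lack it. In UMIs per cell phagocytes held 0.366 and 0.414, above neutrophils at 0.161 and 0.25 and lymphocytes at 0.231 and 0.362. Which scale measures free RNA better was not tested, and Col14a1 is described on its own later.

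Of the 38 chains with 100 UMIs, 31 had their highest level in the same class in both libraries. Mesenchymal-gated cells held 12 of these maxima, tenocytes 7, Schwann-gated cells 6, satellite cells 3, endothelial cells 2 and mural cells 1. The other 7 chains had their maximum in a different class in each library. The heat map of levels shows the same blocks side by side for both libraries.

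**Figure D2:**
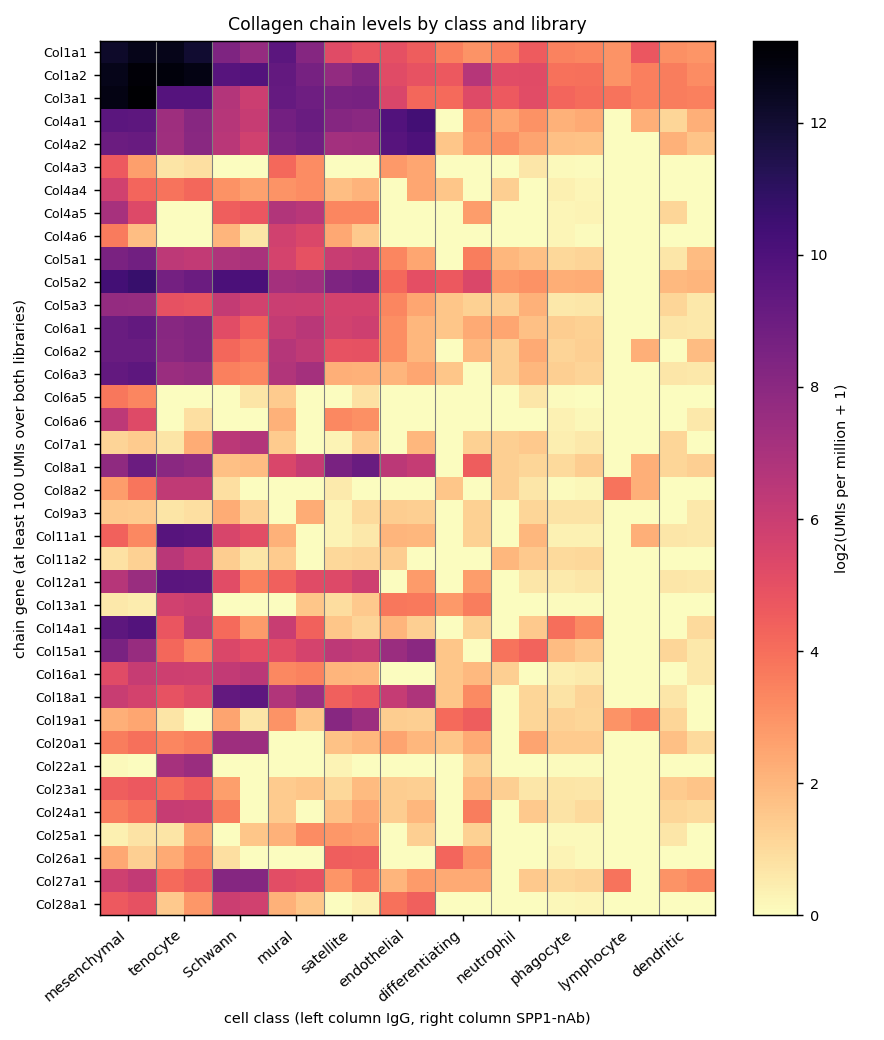
Level of each collagen chain gene (rows) in each marker-gated class and library (columns), as log2 of CPM plus 1. The blocks of chains that are highest in mesenchymal, tenocyte, Schwann, satellite, endothelial and mural cells appear in both libraries.

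The 12 chains with their maximum in mesenchymal-gated cells were Col3a1, Col4a4, Col5a1, Col5a2, Col5a3, the type VI chains Col6a1, Col6a2, Col6a3, Col6a5 and Col6a6, the FACIT chain Col14a1 and the transmembrane chain Col23a1. Some of these margins were small. Tenocytes came next for Col4a4 in the SPP1-nAb library, at 17.5 CPM against 18.3. They also came next for Col23a1, at 15.5 against 21 CPM (IgG) and 21.5 against 24.7 CPM (SPP1-nAb). Fibrillar chains made up 80.2% of the class's collagen UMIs in the IgG library and 83.6% in the SPP1-nAb library. The 5 chains with the most UMIs were Col3a1, Col1a2, Col1a1, Col5a2 and Col14a1, the last a FACIT chain that regulates fiber assembly. Col3a1, the chain of the homotrimer that forms thin reticular fibers, stood at 6961 CPM (IgG) and 9675 CPM (SPP1-nAb). Col1a1 and Col1a2, the chains of type I collagen, stood at 4628 and 6133 CPM and at 6282 and 8602 CPM. Col5a2, a regulator chain of fiber diameter, stood at 1297 and 1632 CPM. These 4 fibrillar chains were higher in the SPP1-nAb library by log2 0.48 (Col3a1), 0.41 (Col1a1), 0.45 (Col1a2) and 0.33 (Col5a2), none past 1.5-fold. Col14a1 stood at 728 and 876 CPM, a log2 ratio of 0.27 (0.22 to 0.31).

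A chain was counted as past the fold when it differed by 1.5-fold or more and the class held 100 of its UMIs, summed over the libraries, in no fewer than 20 cells. In mesenchymal-gated cells 30 chains met the minimum. Of these, 4 were higher in the SPP1-nAb library, where 5.21% of 10176 genes were, and 7 were lower, where 6.97% of genes were. Both counts are a larger share of the chains than of all genes. The median log2 ratio was 0.22 over the 30 chains and -0.03 over all genes. The sum of all chains had a log2 ratio of 0.37 (0.37 to 0.38), so the chains at 1.5-fold lower ran against the sum of their class.

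The 4 minor chains of type IV collagen had the largest ratios downward, while the major pair Col4a1 and Col4a2 stayed within the fold. The major pair forms the common network of most basement membranes, and the chains α3 to α6 form specialized networks, known best from kidney and smooth muscle. Col4a5 stood at 131 CPM in the IgG library (1596 UMIs in 743 cells) and at 38.5 CPM in the SPP1-nAb library (278 UMIs in 175 cells), a log2 ratio of -1.77 (-1.96 to -1.58). Its X-chromosome neighbor Col4a6 stood at 11.7 CPM (142 UMIs) and 2.49 CPM (18 UMIs), a log2 ratio of -2.23 (-3.02 to -1.52). Both members of this head-to-head pair were lower in the SPP1-nAb library. Col4a3 stood at 24 and 5.4 CPM (292 and 39 UMIs), a log2 ratio of -2.15 (-2.67 to -1.67), and 10 cells held 59% of its SPP1-nAb UMIs. Col4a4, its neighbor on chromosome 1, stood at 53.9 and 18.3 CPM, a log2 ratio of -1.56 (-1.84 to -1.29). The major pair on chromosome 8 did not move with them, since Col4a1 stood at 756 and 727 CPM (log2 -0.06, -0.11 to -0.01) and Col4a2 at 514 and 566 CPM (log2 0.14, 0.08 to 0.20). For the 6 type IV chains together the log2 ratio was -0.13, because Col4a1 and Col4a2 supply most of the UMIs.

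The other 3 chains past the fold downward came from other groups. Col6a6, a type VI chain that takes the place of α3 in some tissues, stood at 84 and 36.8 CPM (log2 -1.19, -1.39 to -0.99). Col15a1, a multiplexin of the zone between basement membrane and fibers, stood at 378 and 187 CPM (log2 -1.02, -1.11 to -0.93). Col11a1, a minor fibrillar chain best known from cartilage, stood at 20 and 8.87 CPM (log2 -1.17, -1.59 to -0.77), and 10 cells held 32.1% and 57.8% of its UMIs. Col15a1 lost its maximum to another class, since it was highest in mesenchymal-gated cells of the IgG library and in endothelial cells of the SPP1-nAb library.

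Upward, the short-chain collagens of type VIII led. Col8a1, which forms hexagonal sheets with Col8a2 and is known from vessel wall and healing tissue, stood at 229 CPM (2791 UMIs in 647 cells) and 529 CPM (3818 UMIs in 510 cells), a log2 ratio of 1.20 (1.13 to 1.28). Col8a2 stood at 5.67 and 12.7 CPM (69 and 92 UMIs), a log2 ratio of 1.17 (0.70 to 1.64). The IgG level of Col8a2 was 1.54-fold (0.504 to 7.63) that of background cells and so not clear of free RNA. Col12a1, a FACIT chain of fiber surfaces, stood at 95.4 and 182 CPM (log2 0.93, 0.82 to 1.05), and Col16a1, another FACIT chain, at 35.9 and 66.8 CPM (log2 0.89, 0.70 to 1.08). Neither is at its maximum in this class. The remaining 19 of the 30 chains were within 1.5-fold, among them Col5a1, Col5a3 and the type VI chains Col6a1, Col6a2 and Col6a3.

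**Figure D3:**
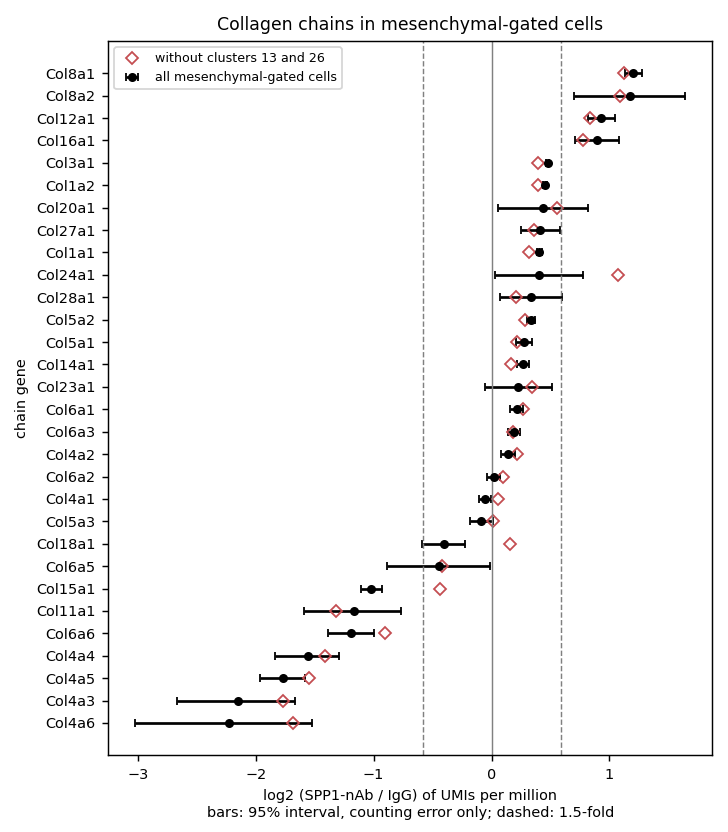
log2 ratio (SPP1-nAb over IgG) of the 30 collagen chain genes with enough UMIs in mesenchymal-gated cells, with exact binomial 95% intervals of counting error, and as open diamonds the ratio without clusters 13 and 26. The 4 minor type IV chains lie lowest and Col8a1 and Col8a2 highest, with and without those clusters; dashed lines mark 1.5-fold.

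The cells of this class were not made up alike in both libraries. When cells were clustered on genes other than collagens, cluster 6 (led by Cxcl14, Bgn and Mmp3) held 59.8% of the mesenchymal-gated cells in the IgG library and 79.3% in the SPP1-nAb library. Cluster 18 (Pi16, Opcml, Krtdap) held 19.2% and 10.8%, and cluster 24 (Tenm2, Gpc3, Apod) held 8.04% and 5.12%. Cluster 26 (Kcnb2, Dlk1, Smoc2) held 10.3% and 0.32%, that is 236 cells against 3. Depth differed too, with median UMIs per cell of 4886 and 7852. Summed markers of tenocytes in these cells were at 376 and 684 CPM (0 and 1 of 10 markers at 0), those of phagocytes at 137 and 201 CPM (none of 12 at 0), and their part in the ratios was not tested.

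Leaving out clusters 13 and 26, in each of which 1 library held at least 90% of the cells, kept 2041 and 932 mesenchymal-gated cells. The choice was made after the clusters had been seen. The sum of all chains then had a log2 ratio of 0.33 (0.32 to 0.34), 5 chains were higher (5.08% of genes) and 6 lower (5.64% of genes). Col4a3, Col4a4, Col4a5 and Col4a6 had log2 ratios of -1.77, -1.41, -1.55 and -1.68, and Col8a1 of 1.12. Col15a1 no longer passed the fold (250 and 184 CPM, log2 -0.44), and Col24a1, a minor fibrillar chain, then did (7.2 and 15.2 CPM, log2 1.07).

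Within single clusters, described after their values had been seen, the minor type IV chains were again lower in the SPP1-nAb library in clusters 6 and 18. Values are over all cells of a cluster. In cluster 6 (1446 and 800 cells), Col4a3 stood at 18.4 and 5.72 CPM, Col4a4 at 47.5 and 18.5, Col4a5 at 83.4 and 32.1, and Col4a6 at 6.66 and 2.49. In cluster 18 (477 and 129 cells), Col4a4 stood at 45.5 and 16.6 CPM, Col4a5 at 193 and 61.3, Col4a3 at 20.6 and 1.28 (48 and 1 UMIs) and Col4a6 at 12.9 and 0 (30 and 0 UMIs). All of these were lower in the SPP1-nAb library, while Col4a1 stood at 832 and 769 CPM in cluster 6 and at 222 and 222 in cluster 18. In cluster 24 Col4a5 stood at 110 and 71.8 CPM and Col4a4 at 42.3 and 20.5, but Col4a3 at 5.42 and 17.1, on very few UMIs in each library. When mesenchymal-gated cells were instead split by marker lists, those with the Pi16/Dpp4 list held Col4a3 at 16.1 and 11.7 CPM, a log2 ratio of -0.47 (-1.44 to 0.40) that includes 0.
The type I and III chains differed between clusters in a way the class sum hides. Col1a1 stood at 6142 and 6590 CPM in cluster 6 (log2 0.10), at 2680 and 4882 in cluster 18 (log2 0.87) and at 4400 and 2166 in cluster 24 (log2 -1.02). Col3a1 followed the same pattern, with log2 ratios of 0.23, 0.83 and -0.62. Thus cluster 18 was higher and cluster 24, of 247 and 78 cells, was lower in the SPP1-nAb library for the same chains.
Col8a1 stood at 281 and 564 CPM in cluster 6, at 36.1 and 132 in cluster 18 and at 540 and 424 in cluster 24, so its direction was also not shared by cluster 24. Col15a1 was highest in clusters 24 and 26, at 1080 CPM (IgG) and 653 CPM (SPP1-nAb) in cluster 24 and at 1616 CPM in the IgG cells of cluster 26. In cluster 6 it stood at 219 and 174 CPM. The 3 SPP1-nAb cells of cluster 26 are too few for a level.

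**Figure D4:**
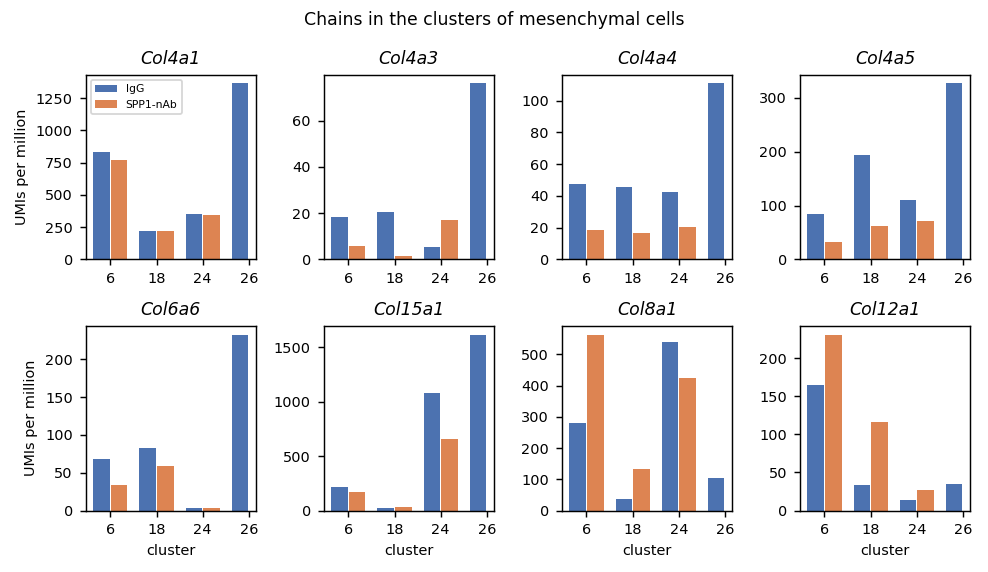
Level (CPM) of 8 collagen chain genes in the 4 clusters of mesenchymal cells, with 1 bar per library and each axis starting at 0; the SPP1-nAb bar of cluster 26 is left blank because it has 3 cells. Col4a4 and Col4a5 are lower in the SPP1-nAb bar of clusters 6 and 18, and Col8a1 is higher there but not in cluster 24.

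In tenocyte-gated cells the 7 chains with their maximum were Col8a2, Col11a1, Col11a2, Col12a1, Col13a1, Col22a1 and Col24a1. Col22a1, a FACIT chain known from the junction of muscle and tendon, was the most restricted, at 136 CPM (IgG) and 178 CPM (SPP1-nAb). It had a UMI in 70 of 618 and 50 of 340 tenocyte-gated cells, and 10 cells held 40.4% and 52.9% of its UMIs. Mesenchymal-gated cells held 1 UMI of it in the IgG library and 0 in the SPP1-nAb library. The genes most like it over 22 points (11 classes in 2 libraries, Pearson's r of log2 CPM plus 1) included Ptx4 (r = 0.989) and Cilp2 (r = 0.977), both of them on the list that defined the class. Col12a1 stood at 767 and 749 CPM, Col11a1 at 835 and 785, Col11a2 at 88.7 and 61.3, and Col8a2 at 77.4 and 75.6. The minor fibrillar chain Col24a1 stood at 66.1 and 65.3 CPM and the transmembrane chain Col13a1 at 53.6 and 60.5. Each of these chains of tendon was within 1.5-fold between the libraries. Col11a2 came nearest to that limit, with a log2 ratio of -0.53 (-0.95 to -0.13). The interval of Col22a1 (log2 0.39, 0.11 to 0.66) also left out 0.

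The chains of tenocytes with the most UMIs were Col1a2, Col1a1, Col3a1, Col11a1 and Col12a1. Col1a2 stood at 7930 and 6869 CPM and Col1a1 at 6124 and 4174 (log2 -0.55, -0.60 to -0.51), just within 1.5-fold. In the IgG library tenocytes therefore held the maximum of both type I chains, and in the SPP1-nAb library mesenchymal-gated cells did. Col3a1 stood at 865 and 868 CPM, with 63.6% and 41.6% of its UMIs in 10 cells.
Of 20 chains with enough UMIs, 3 were past the fold upward, where 4.13% of 4262 genes were, and 0 downward, where 3.52% were. No test stands behind the 0, since 1 library per group allows none. Col4a1 stood at 165 and 273 CPM (log2 0.73, 0.50 to 0.96) and Col4a2 at 156 and 264 (log2 0.76, 0.52 to 1.00), so both members of the chromosome 8 pair were higher together. Col14a1, a FACIT chain, stood at 26.2 and 72.4 CPM (log2 1.47, 0.93 to 2.02) from 44 and 91 UMIs, of which 10 cells held 65.9% and 80.2%. Markers of mesenchymal cells summed to 2573 and 3367 CPM in these cells, with none of the 12 at 0, and their part in the type IV and Col14a1 ratios was not tested.

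Schwann-gated cells, 443 and 456 cells, held the highest level among classes for 6 chains. Schwann cells are the glia that wrap axons and cap the neuromuscular junction. The 6 chains with their maximum there were the multiplexin Col18a1, the source of the fragment endostatin, the fibrillar chain Col27a1, the FACIT chains Col16a1 and Col20a1, the anchoring fibril chain Col7a1 and Col28a1. Col18a1 stood at 624 CPM (IgG, 802 UMIs in 303 cells) and 697 CPM (SPP1-nAb, 1076 UMIs in 379 cells). Col27a1 stood at 281 and 297 CPM and Col20a1 at 163 and 171. Col7a1 stood at 87.2 and 101 CPM, Col16a1 at 74.7 and 84.8 and Col28a1 at 60.7 and 53.7.
These 6 chains were within 1.5-fold between the libraries, with log2 ratios of 0.16 for Col18a1, 0.08 for Col27a1, 0.07 for Col20a1, 0.21 for Col7a1, 0.18 for Col16a1 and -0.18 for Col28a1. The intervals of the last 5 include 0, which does not show that the levels were equal. For Col28a1 the interval ran from -0.64 to 0.29.
Mesenchymal-gated cells came next for Col28a1 at 23.5 and 29.6 CPM and held more of its UMIs (286 and 214 against 78 and 83). Those UMIs lay in 105 and 81 cells, and 10 cells held 33.9% and 35.5% of them. In mesenchymal cluster 24, Col26a1 and Col28a1 together stood at 180 and 287 CPM. Their sum was 104 and 95.5 CPM in cluster 17, a Schwann cluster described below. All mesenchymal-gated cells held 52 and 11 UMIs of Col26a1. The Schwann maximum of Col28a1 is thus one among classes. Mesenchymal-gated cells held Col20a1 at 10.9 and 14.7 CPM. For Col7a1 the next class was mural cells at 1.72 CPM in the IgG library and tenocytes at 3.98 CPM in the SPP1-nAb library, on 1 and 5 UMIs. For Col16a1 the order was not clear of counting error, since tenocytes held 57.2 CPM (46.3 to 69.8) where Schwann-gated cells held 74.7 CPM (60.5 to 91.3) in the IgG library, and mesenchymal-gated cells held 66.8 CPM (60.9 to 73.0) where Schwann-gated cells held 84.8 CPM (70.9 to 101) in the SPP1-nAb library.

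Free RNA was low for these chains. In the IgG library the background cells had no UMI of Col18a1, and the Schwann-gated level was at least 169-fold higher than the level that 3 counts in those cells would give. In the SPP1-nAb library it was 693-fold higher (191 to 5733) on 2 background UMIs. Col20a1 and Col28a1 were likewise at 0 in the IgG background and at least 44.1-fold and at least 16.4-fold higher in Schwann-gated cells. When each cell was thinned to 2000 UMIs, 336 and 395 Schwann-gated cells remained and 107 and 61 were left out. Col18a1 then had a UMI in 68.2% (62.9 to 73.1) and 67.6% (62.7 to 72.2) of cells, against 68.4% and 83.1% before thinning at median depths of 2722 and 3200 UMIs. Col7a1 had one in 12.5% and 14.2%, and Col20a1 in 21.7% and 19.7%. Among lymphocyte-gated cells thinned alike, 0 of 33 and 0 of 52 had a UMI of Col18a1, which allows up to 10.6% and 6.85% of cells with a UMI by exact binomial intervals and sets no limit on cells that express it.

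The chains with the most UMIs in Schwann-gated cells were Col5a2 at 1072 and 1089 CPM, Col1a2 at 841 and 878, Col18a1, Col27a1 and Col1a1. Col1a1 stood at 335 and 197 CPM here, against 4628 and 6133 CPM in mesenchymal-gated cells. Of 16 chains with enough UMIs, 0 were higher past the fold, where 1.27% of 4805 genes were, and 3 were lower, where 2.37% were. Col1a1 had a log2 ratio of -0.77 (-0.98 to -0.55), with 33.5% of its IgG UMIs in 10 cells. Col3a1 stood at 104 and 58.9 CPM (log2 -0.81, -1.21 to -0.42), with 45.9% and 41.8% of its UMIs in 10 cells. In the SPP1-nAb library that level was 1.89-fold (1.35 to 2.66) the level of background cells. Col4a2 stood at 90.3 and 53.7 CPM (log2 -0.75, -1.17 to -0.33), on 116 and 83 UMIs. Markers of mesenchymal cells summed to 154 and 141 CPM in Schwann-gated cells, with 2 and 1 of 12 at 0.

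The 2 clusters of Schwann-gated cells differed in which of the 6 chains they held. In cluster 17 (Reln, Epha5, Itgb8; 274 and 314 cells) Col28a1 stood at 102 and 95.5 CPM and Col18a1 at 649 and 714, while Col20a1 stood at 6.33 and 10.6, Col7a1 at 10.1 and 11.6 and Col16a1 at 24 and 28. In cluster 20 (Slc35f1, Klk9, Btc; 225 and 217 cells) Col20a1 stood at 348 and 376 CPM, Col7a1 at 171 and 203, Col16a1 at 127 and 149 and Col18a1 at 508 and 596, while Col28a1 stood at 18.8 and 2.59. Col18a1 was thus common to both clusters, Col28a1 higher in the former and the other 3 chains named higher in the latter. The Col28a1 level of cluster 20 rests on few UMIs, since Col26a1 and Col28a1 together had 14 and 2 there. Summed collagen was 2654 and 2629 CPM in cluster 17 and 5863 and 5723 CPM in cluster 20. The difference in summed collagen between the clusters was the same way in both libraries and larger than that between libraries. The 2 clusters held 54% and 46% of the class in the IgG library and 56.4% and 43.6% in the SPP1-nAb library. The Col1a1 ratio lay mainly in cluster 20, at 554 and 320 CPM.

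Satellite cells, the stem cells of muscle fibers, and their myoblasts held the maximum of Col8a1, the FACIT chain Col19a1 and Col26a1. Col19a1 stood at 271 CPM (1219 UMIs in 619 cells) and 172 CPM (690 UMIs in 348 cells), a log2 ratio of -0.66 (-0.79 to -0.52). Col26a1 stood at 21.5 and 20.4 CPM, and cells gated as differentiating myoblasts were close behind in the IgG library at 18.2 CPM. Col8a1 stood at 373 and 532 CPM (log2 0.51, 0.42 to 0.60), and in the SPP1-nAb library its level overlapped that of mesenchymal-gated cells at 529 CPM. The genes most like Col19a1 over the 22 points included Hs6st2 (r = 0.932), a sulfotransferase of heparan sulfate, and Pax7 (r = 0.888), a defining marker of the class.
The chains with the most UMIs were Col8a1, Col3a1 at 383 and 388 CPM, Col5a2 at 336 and 396, Col4a1 at 279 and 257 and Col1a2 at 214 and 318 (log2 0.57, 0.45 to 0.69). Markers of mesenchymal cells summed to 2187 and 2019 CPM in satellite-gated cells, with none of the 12 at 0, and their part was not tested. Col1a1, at 35.5 and 26.7 CPM, was far below the level of 6124 and 4174 CPM in tenocytes, and stood nearer to the 9.85 and 23.1 CPM of background cells. Of 16 chains with enough UMIs, 0 were past the fold upward (4.76% of 7443 genes) and 1, Col19a1, downward (3.91% of genes), a share near the background.
Col19a1 differed more between clusters than between libraries. It stood at 217 and 172 CPM in cluster 8 (Pax7, Drp2, Myf5), at 422 and 312 in cluster 13 (Nppc, Gal, Pde10a) and at 109 and 110 in cluster 16 (Ttn, Cdkn1c, Mest). It was highest in cluster 21 (Hs6st3, Tenm4, Dlg2), at 899 and 713 CPM, whose cells had a median of only 1053 UMIs. Cluster 13 held 36.9% of the satellite-gated cells of the IgG library and 2.51% of those of the SPP1-nAb library. Without clusters 13 and 26, Col19a1 stood at 201 and 170 CPM (log2 -0.24, -0.40 to -0.08) and was within the fold. Col8a1 then stood at 514 and 538 CPM, with a log2 ratio of 0.07 (-0.03 to 0.16) whose interval includes 0. Col1a2 then stood at 292 and 322 CPM (log2 0.14, 0.02 to 0.26). The sum of all chains went from a log2 ratio of 0.13 (0.10 to 0.17) to -0.09 (-0.13 to -0.05). Past the fold were then 0 chains upward (3.16% of genes) and 1 downward (2.68% of genes), which was Col1a1 at 43.1 and 26.5 CPM.

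Among the classes, endothelial cells held the maximum of the major type IV pair. Col4a1 stood at 934 CPM (IgG) and 1271 CPM (SPP1-nAb), with a log2 ratio of 0.44 (0.29 to 0.60), and Col4a2 at 816 and 1014 (log2 0.31, 0.15 to 0.48). Type IV chains made up 76.5% and 78.8% of the collagen UMIs of the class, where the next class, mural cells, had 25.7% and 35%. In the IgG library the type IV chains together stood at 2701 CPM in mesenchymal cluster 26, against 1756 CPM in endothelial cells. Over the 22 points Col4a1 and Col4a2 were alike with r = 0.979. Next by UMIs came Col15a1 at 174 and 250 CPM, Col8a1 at 84.5 and 68 and Col18a1 at 69.1 and 114. Of 5 chains with enough UMIs, 1 was past the fold upward (2.82% of 2549 genes) and 0 downward (3.41%). That chain was Col18a1 (log2 0.72, 0.17 to 1.28), with 84.4% and 67.5% of its UMIs in 10 cells. Markers of phagocytes summed to 455 and 727 CPM in endothelial cells (1 and 0 of 12 at 0) and those of mesenchymal cells to 127 and 60.6 CPM (0 and 1 of 12 at 0), and their part was not tested. The cells numbered 407 and 332, with median depths of 1214 and 1309 UMIs.

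Mural cells, 181 and 123 of them, held the maximum of Col4a6 at 53.3 and 42.1 CPM (31 and 21 UMIs). Col4a5 stood at 105 and 90.1 CPM, a log2 ratio of -0.22 (-0.81 to 0.36). The X-chromosome pair was thus present together here too, and in the SPP1-nAb library mural cells took the maximum of Col4a5, and of Col4a3 on 4 UMIs, from mesenchymal-gated cells.
The chains with the most UMIs were Col1a1, Col1a2, Col3a1 at 592 and 489 CPM, Col4a1 at 439 and 547 and Col4a2 at 360 and 457. Of 9 chains with enough UMIs, 1 was past the fold upward (3.82% of 1909 genes) and 2 downward (2.57%). Col18a1 was the former, at 105 and 168 CPM (log2 0.68, 0.19 to 1.18). Markers of phagocytes summed to 124 and 288 CPM in mural cells (2 and 1 of 12 at 0) and those of tenocytes to 114 and 216 CPM (3 and 4 of 10 at 0), and their part was not tested. Col1a1 stood at 752 and 286 CPM (log2 -1.39, -1.68 to -1.12) and Col1a2 at 621 and 399 (log2 -0.64, -0.90 to -0.39). For Col1a1, 10 cells held 91.5% and 73.4% of the UMIs, and with 20% of barcodes removed as doublets both type I ratios turned to log2 0.88 and 0.64. The type I chains of this class rest on few cells, and their direction depends on that setting.

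In phagocytes Col14a1, a FACIT chain, stood clear of free RNA. Col14a1 had 796 UMIs in 559 of the phagocyte-gated cells of the IgG library and 699 UMIs in 511 of those of the SPP1-nAb library, at 15.1 and 8.52 CPM. Background cells held 0 and 3 UMIs of it, so phagocytes were at least 4.08-fold higher in the IgG library and 5.65-fold higher (1.93 to 27.5) in the SPP1-nAb library. In CPM, phagocytes were level with the background or below it for the type I and III chains, as with Col1a2 at 0.471-fold and 0.445-fold. For the sum of all chains the order was the other way in UMIs per cell, as given above.
Col14a1 was unevenly spread among phagocytes. It stood at 44.3 and 36.9 CPM in cluster 0 (Il10, Fcrls, Gpr34), at 30.6 and 13.6 in cluster 23 (Smagp, Mylpf, Fcrls), at 24.6 and 17.4 in cluster 11 (Ifih1, Ifit2, Gm4951) and at 17.2 and 16.1 in cluster 4 (Lyve1, Cd209f, Cd163). In cluster 1 (Gpnmb, Atp6v0d2, Syngr1) it stood at 2.46 and 3.27, and in cluster 3 (Cxcl3, Il1a, Nrg1) at 1.6 and 1.98. Col1a2, whose CPM in phagocytes was below that of the background, showed smaller steps. It stood at 16.2 and 17.9 CPM in cluster 0, at 9.13 and 11.1 in cluster 1 and at 12.6 and 10.8 in cluster 3.
Of 19 chains with enough UMIs in phagocytes, 1 was past the fold upward (2.69% of 12507 genes) and 1 downward (8.6%). The latter was Col14a1, with a log2 ratio of -0.82 (-0.97 to -0.68). Within cluster 0 the difference was smaller, at 44.3 and 36.9 CPM. It was larger in cluster 23, at 30.6 and 13.6 CPM on 27 and 9 UMIs. Cluster 0 held 3355 and 2743 cells, and clusters 1 and 3, low in Col14a1, held 1269 and 3085 cells and 856 and 2338 cells. The chain past the fold upward was Col18a1, at 0.701 and 1.22 CPM from 37 and 100 UMIs, where background cells held 0 and 2 UMIs (1 CPM in the SPP1-nAb library).

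**Figure D5:**
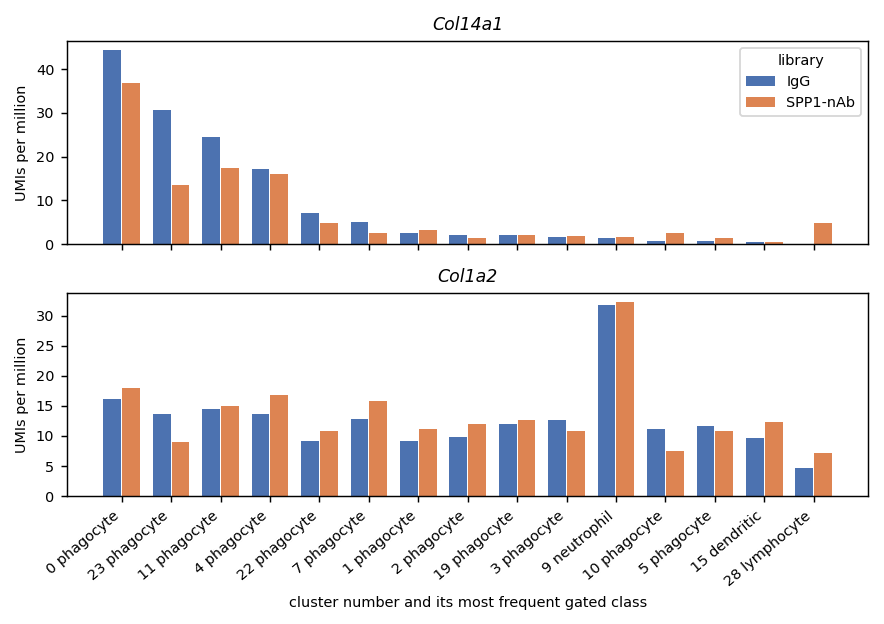
Level (CPM) of Col14a1 and Col1a2 in the clusters of immune cells, ordered by Col14a1 in the IgG library, with 1 bar per library. Col14a1 reaches 44.3 and 36.9 CPM in cluster 0 and stays under 4 CPM in clusters 1, 2 and 3, whereas Col1a2 has smaller steps among phagocyte clusters.

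The chains not yet placed were few in UMIs. Col9a3 (67 and 86 UMIs) and Col25a1 (48 and 65 UMIs) had their highest levels in different classes in the libraries, Col9a3 on 5 UMIs in Schwann-gated and 2 in mural cells, and Col25a1 in satellite cells (29 UMIs) and mural cells (4 UMIs). Col6a5 stood at 12.3 and 9 CPM and Col23a1 at 21 and 24.7 CPM in mesenchymal-gated cells. Of the 6 chains under 100 UMIs, Col2a1 had 63 and 11 UMIs and Col9a2 had 92 and 6, so that both were more frequent in the IgG library. Of the 92 Col9a2 UMIs, 85 lay in mesenchymal-gated cells, and without clusters 13 and 26 it had 27 and 3 UMIs there. Col17a1 had 31 and 34, Col6a4 had 3 and 2, Col9a1 had 2 and 3, and Col10a1 had 1 in each.

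A list of 50 genes for the making, cross-linking, uptake and binding of collagen was set beside the chains. In mesenchymal-gated cells 42 had enough UMIs, of which 6 were past the fold upward and 4 downward, beside 5.21% and 6.97% of all genes. In Schwann-gated cells 19 had enough, of which 1 was past it upward and 0 downward, beside 1.27% and 2.37%. The counts upward and downward were 3 and 2 of 35 in tenocytes, beside 4.13% and 3.52% of all genes. Satellite cells had 2 and 2 of 29 (4.76% and 3.91% of genes), and endothelial cells 3 and 0 of 11 (2.82% and 3.41%). Mural cells had 1 and 0 of 7 (3.82% and 2.57%), and phagocytes 2 and 3 of 31 (2.69% and 8.6%). The counts downward were close to the share of all genes in mesenchymal-gated cells. Lox, the lysyl oxidase that starts the cross-linking of collagen, stood at 266 CPM (IgG) and 626 CPM (SPP1-nAb), a log2 ratio of 1.23 (1.17 to 1.30). Loxl3, of the same family, stood at 41.5 and 77.4 CPM. Among enzymes that modify the chains, the prolyl hydroxylase subunit P4ha3 stood at 13 and 24.4 CPM and the lysyl hydroxylase Plod2 at 146 and 226. Ctsk, a protease that degrades collagen, stood at 317 and 499 CPM and Itga1, a collagen receptor subunit, at 55 and 90.5.
These 6 genes were higher by 1.5-fold or more. The 4 that were lower were the receptor subunit Itga2 (14.4 and 5.82 CPM), the enhancer of propeptide cleavage Pcolce2 (263 and 117), the glycosyltransferase Colgalt2 (28.1 and 16.8) and the propeptidase Adamts14 (7.4 and 4.85). Pcolce2 was among the leading genes of cluster 18, which held 19.2% of the mesenchymal-gated cells in the IgG library and 10.8% in the SPP1-nAb library. The part of this mix in the ratios of listed genes was not tested. Of 12 counts of listed genes recomputed under other settings, 9 were equal to or within 1.5 times the reported count and 3 were not. The median log2 ratio of the 42 genes was 0.25, near the 0.22 of the chains. Serpinh1, the collagen chaperone, was within the fold at 525 and 700 CPM. In Schwann-gated cells the gene past the fold was Bmp1, which removes the C-terminal propeptides of fibrillar chains, at 91.1 and 157 CPM (log2 0.79).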

How the data were processed

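Whole cells from 1 IgG and 1 SPP1-nAb muscle preparation were measured by droplet scRNA-Seq. For each library the authors deposited raw UMI counts per gene and barcode, written by CellRanger without normalization; the file headers name version 9.0.1, the labels 8.0.0, and the methods both GRCm39 and GRCm38. The authors' later ambient RNA removal and integration are not in these counts. Barcodes with more than 200 genes and under 10% mitochondrial UMIs were kept (97607674 and 127719916 UMIs before filters), and the 10% per library with the highest doublet scores were removed. Scores used neighbors among 2 doublets made per barcode in 30 principal components of 2000 variable genes, from which collagens were not left out. Leiden clusters left collagens out of the variable genes and used resolution 1 (scanpy 1.11.5, leidenalg 0.10.2). Clusters are called by number and some of their leading genes; a few of these genes are not reported here. Classes came from marker gates, UMIs were summed per class and library, and ratios carry exact binomial intervals, CPM exact Poisson intervals and shares Clopper-Pearson intervals. The gates and ratios were tried on counts simulated from the gated classes with counting error alone. Such counts cannot show whether real cells were placed in a wrong class, nor the spread between cells. The members and gene lists were chosen with earlier results of these data known. Named were chains at their highest level in a class, the 5 with most UMIs, up to 5 per direction with the largest ratios past the fold, and listed biosynthesis genes past 1.5-fold in mesenchymal- or Schwann-gated cells; clusters were chosen after their values were seen. Alternatives covered filters, doublets, gates, free RNA, thinning and fold.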

Additional observations from a re-analysis of the deposited data

Results flagged for a closer look

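Col4a2, a chain of the major type IV network, had opposite ratios in 2 classes, with a log2 SPP1-nAb over IgG of 0.76 in tenocyte-gated cells (156 and 264 CPM) and of -0.75 in Schwann-gated cells (90.3 and 53.7 CPM). Col14a1 likewise had a log2 ratio of 1.47 in tenocyte-gated cells (26.2 and 72.4 CPM) and of -0.82 in phagocyte-gated cells (15.1 and 8.52 CPM). In both cases the single library of each treatment moved one way in 1 class and the other way in the other, and the difference was not tested. Among phagocytes, Col14a1 stood at 44.3 and 36.9 CPM in cluster 0 and at 17.2 and 16.1 in cluster 4. It stood at 2.46 and 3.27 CPM in cluster 1 and at 1.6 and 1.98 in cluster 3. Clusters 1 and 3 held 1269 and 856 IgG cells against 3085 and 2338 SPP1-nAb cells, and the part of this mix was not tested. In tenocytes, 10 cells held 65.9% and 80.2% of the Col14a1 UMIs, and markers of mesenchymal cells were at 2573 and 3367 CPM. The part of either was not tested.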

How the results depend on the processing

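Of 928 values recomputed under other settings, 759 stayed within counting error of the reported value or within 1.5 times a reported count, 159 lay outside it and 10 changed direction. Ratios are log2 SPP1-nAb over IgG, and the cause of each change was not tested. For mesenchymal-gated cells the ratio of all chains (0.37) was 0.317 without doublet removal, 0.48 with 20% removed, 0.385 with 2 markers, 0.319 from clusters, 0.46 as a mean over cells, 0.45 after thinning and 0.33 without clusters 13 and 26. For tenocytes (-0.21) it was -0.34 after thinning. For satellite cells (0.13) it was 0.0637 with 4 markers, 0.29 as a mean over cells, 0.20 after thinning and -0.0946 without those clusters, where their fibrillar chains gave -0.0624. For mural cells (-0.21) it was -0.535 under 5% mitochondrial UMIs, -0.60 without doublet removal, 0.495 with 20% removed, -0.00129 from clusters, 0.19 as a mean over cells and 0.23 after thinning, and 20% doublet removal gave 0.55 for their fibrillar chains, 0.88 for Col1a1 and 0.64 for Col1a2. Against lymphocytes alone, phagocyte collagen was 1.43-fold and 1.04-fold.

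Counts of chains past the fold changed as follows. The share of all genes past the fold was not computed at these settings, so a changed count is not a result about the chains. A lower minimum of UMIs also admits more chains. At 2-fold, mesenchymal chains upward were 2 in place of 4, tenocyte chains upward 1 in place of 3, Schwann chains downward 0 in place of 3 and satellite chains downward 0 in place of 1. Classes from clusters gave 5 tenocyte chains upward and 2 downward in place of 0, and 2 satellite chains upward in place of 0. With 20% doublets removed there was 1 tenocyte chain downward and 1 satellite chain upward. With 30 UMIs as the minimum there was 1 tenocyte chain downward, 6 Schwann chains downward and 1 satellite chain upward. Subtracting free RNA as CPM gave 5 Schwann chains downward, and 1 satellite chain upward and 2 downward, as did subtraction per cell for satellite cells. Under 5% mitochondrial UMIs 1 satellite chain was upward.

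The mesenchymal share of collagen UMIs (77.1% IgG, 75.4% SPP1-nAb) was 77.8% and 76.3% under 5% mitochondrial UMIs, 72% and 69.9% without doublet removal, 76.7% and 76% with 20% removed, 85.2% and 82.4% from clusters, 78.6% and 79.4% after subtraction as CPM and 77.7% and 76.7% per cell. It was 76.1% in the IgG library without clusters 13 and 26 and 76.1% in the SPP1-nAb library with 4 markers. Subtraction per cell and leaving out clusters were chosen after seeing the data. In mesenchymal-gated cells Col4a3, Col4a4, Col4a5, Col4a6, Col6a6, Col8a1, Col8a2, Col12a1 and Col16a1 passed the fold in 12 of 12 alternatives, Col11a1 and Col15a1 in 11. Over mesenchymal, tenocyte, Schwann, satellite, endothelial and mural cells, 12 of 22 named ratios did so in every alternative. The phagocyte ratios of Col14a1 and Col18a1 were not recomputed under the alternatives. Of the rest, Col4a1 in tenocytes, Col4a2 in Schwann-gated cells and Col19a1 in satellite cells passed in 11, Col3a1 in Schwann-gated cells, Col18a1 in endothelial and mural cells and Col1a1 in mural cells in 10, and Col1a2 in mural cells in 7. The Col8a2 ratio ran from 1.09 to 2.57. No paired analysis was possible because each group has 1 library. Chains under 100 UMIs in a class were too few for a ratio at this depth.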

Other observations

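Col15a1 had 13.5 and 18.7 CPM in neutrophil-gated cells, against 2.6 and 1.8 CPM in phagocyte-gated cells, though on 9 and 32 UMIs. Col27a1 stood at 6.9 and 8.69 CPM in dendritic-gated cells and at 1.12 and 1.21 CPM in phagocytes. In the SPP1-nAb library the dendritic level was 5.77-fold (1.67 to 30.7) that of background cells, on 17 and 3 UMIs. Over the 22 points of class and library, the gene most like Col18a1 was Afap1l2 (r = 0.967), that most like Col7a1 was Epha5 (r = 0.958) and that most like Col20a1 was Reln (r = 0.935). Epha5 and Reln are among the leading genes of cluster 17, while Col7a1 and Col20a1 were higher in cluster 20. The gene most like Col4a6 was Susd5 (r = 0.961) and that most like Col16a1 was Postn (r = 0.968). The points share libraries and depth, so these are descriptions.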
